A study of Homo sapiens with 6 samples.

Results

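LIN28B, the RNA-binding protein that blocks maturation of the let-7 microRNAs, was examined together with 7 genes of the same pathway. LIN28A is its paralogue, and IGF2BP1, IGF2BP2, IGF2BP3, HMGA1 and HMGA2 are oncofetal let-7 targets. DICER1 cuts the let-7 hairpin to its mature length and is itself a let-7 target. The 8 genes were chosen by the change of LIN28B between the same 6 samples, so their differences are given as a description with no test. Every probe set whose platform annotation names one of them as its only gene symbol was taken, which gave 28 probe sets of 54613, for 8 genes of 19775.

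The mutated samples and the parental samples were both BCWM1 cells, a human line established from Waldenström macroglobulinemia, which is a B-lymphoid and plasmacytic lymphoma. The study asked which mRNA levels differ in the mutated cells. Each group had 3 samples, numbered 1 to 3, with no agent or time point in the labels. Total RNA was copied into biotinylated cRNA and read on an oligonucleotide array. In the series title the mutation is given as C1013G and attached to CXCR4, the CXCL12 receptor. The labels leave unstated how the mutated cells were made, whether they are 1 clone, and whether they had a vector control. The arrays read transcript amounts and not that base, so they do not check the label. Nothing in the labels says that replicates came from different cultures, so p-values rest on a spread that may be technical.

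Across the arrays, median intensity was 30.93 to 31.83 in mutated and 28.46 to 29.13 in parental samples. Pearson's r across tested probe sets, which are not independent replicates, ranged over 0.994 to 0.996 for arrays of the same group and over 0.967 to 0.97 across groups. Of 12 B cell and plasma cell markers, 11 had a probe set, and those 11 were above the array's own median on all 6 arrays. Their summed intensity was 31660 to 33240 in mutated and 34670 to 36010 in parental samples. The summed intensity of 7 T cell markers was 204 to 231 in mutated and 144 to 154 in parental samples, and 4 of the 7 were below the median on all 6 arrays. That sum moved with TRAT1, a T cell receptor adaptor, at 64.51, 56.51 and 56.23 in mutated against 5, 7.36 and 3.83 in parental samples. Summed fibroblast markers were 473 to 571 in mutated and 735 to 827 in parental samples, mostly from the COL1A1 probe set, and summed pluripotent or germ cell markers were 58.3 to 60 in mutated and 47.5 to 55.3 in parental samples. Summed myeloid markers were 118 to 129 in mutated and 130 to 138 in parental samples, and summed epithelial markers 84.85 to 105 in mutated and 92.99 to 164 in parental samples. Whether other cells had a part in the results was not tested.

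In mammalian cells LIN28 proteins bind the loop of let-7 precursors at the bases GGAG, so that little mature let-7 is made. LIN28A recruits the uridylating enzymes TUT4 and TUT7, and the exonuclease DIS3L2 degrades the tailed precursor, while LIN28B has also been described as holding back primary let-7 transcripts in the nucleus. Mature let-7 in turn lowers mRNAs that pair with its seed, among them LIN28B itself, HMGA2 and the IGF2BP genes. LIN28B, IGF2BP1, IGF2BP3 and HMGA2 are typical of fetal tissue and are switched on again in many tumours. None of the mature let-7 microRNAs was measured on these arrays.

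The sequences that link these genes are the seeds of the let-7 family, shown because target pairing runs through them. The mature forms from the 5p arm follow, from RefSeq GRCh38.p14, 5′ to 3′, with the seed, bases 2 to 8, in capitals.
let-7a-5p: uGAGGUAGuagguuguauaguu
let-7b-5p: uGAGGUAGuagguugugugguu
let-7c-5p: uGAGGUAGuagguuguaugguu
let-7d-5p: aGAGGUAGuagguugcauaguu
let-7e-5p: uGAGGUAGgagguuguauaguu
let-7f-5p: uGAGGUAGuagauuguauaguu
let-7g-5p: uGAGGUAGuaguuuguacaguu
let-7i-5p: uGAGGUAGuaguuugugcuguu
miR-98-5p: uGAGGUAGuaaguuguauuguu
All 9 carried 1 seed, which 11 of the 2370 mature names in the RefSeq table had. Outside the seed they differed from let-7a-5p at 1 to 4 positions.

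Hairpins of 3 let-7 genes are shown because they carry, or lack, the bases that LIN28 binds. GGAG after the 5p arm is in capitals, on the strand of the RNA. The capitals at the far end of the MIRLET7C hairpin lie outside the loop and are not a loop match.
MIRLET7C: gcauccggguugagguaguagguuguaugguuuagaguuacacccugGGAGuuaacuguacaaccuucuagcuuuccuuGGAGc
MIRLET7G: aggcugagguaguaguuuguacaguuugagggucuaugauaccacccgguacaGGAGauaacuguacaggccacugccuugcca
MIRLET7B: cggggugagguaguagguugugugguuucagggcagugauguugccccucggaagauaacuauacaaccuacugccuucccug
In GRCh38.p14 these lie at chr21:16539828-16539911 on the plus strand (MIRLET7C), chr3:52268278-52268361 on the minus strand (MIRLET7G) and chr22:46113686-46113768 on the plus strand (MIRLET7B). Of the 12 let-7 and miR-98 hairpins in the table, 9 held GGAG after the 5p arm and 3 (MIR98, MIRLET7A3 and MIRLET7B) did not. The motif is short, and 43.4% of all 1562 RefSeq hairpins held it somewhere, so a match describes the letters and no binding.

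Intensities were compared as log2(intensity + 16). The added 16, the pseudocount, damps noise in dim probe sets and understates their fold change. The dimmest 40% of probe sets by mean over the 6 samples were left out, which kept 32768 probe sets for 13644 genes. Of the members, 14 probe sets of 6 genes remained, while LIN28A and IGF2BP1 had none.

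LIN28B was higher in all 3 mutated samples than in any of the 3 parental samples, where it was low. Its only probe set (229349_at) read 79.57, 84.84 and 56.64 in mutated samples, against 7.15, 3.30 and 2.83 in parental samples. The groups did not overlap, and the lowest mutated value was mutated 3. All 3 mutated values were above the median of their own array, and all 3 parental values were below the first quartile of theirs, which was 8.63 to 9.03. The mean intensity was 73.7 ± 15.0 in mutated and 4.43 ± 2.37 in parental samples (SD, n = 3 each). No exact fold is given, because the parental values are too dim to set one against. The log2 difference was 2.13 (SE 0.143), and it was 3.85 with a pseudocount of 1 and 1.00 with a pseudocount of 64, since the parental values lie near the bottom of the scale. LIN28B passed the brightness filter only through the mutated samples. In bulk RNA a few cells with much LIN28B mRNA and many cells with little cannot be told apart. The probe set named for its antisense transcript LIN28B-AS1 (244175_at, looked at after its values were seen) read 26.21, 32.87 and 39.33 in mutated and 36.83, 24.43 and 35.77 in parental samples, and these overlapped.

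**Figure D1:**
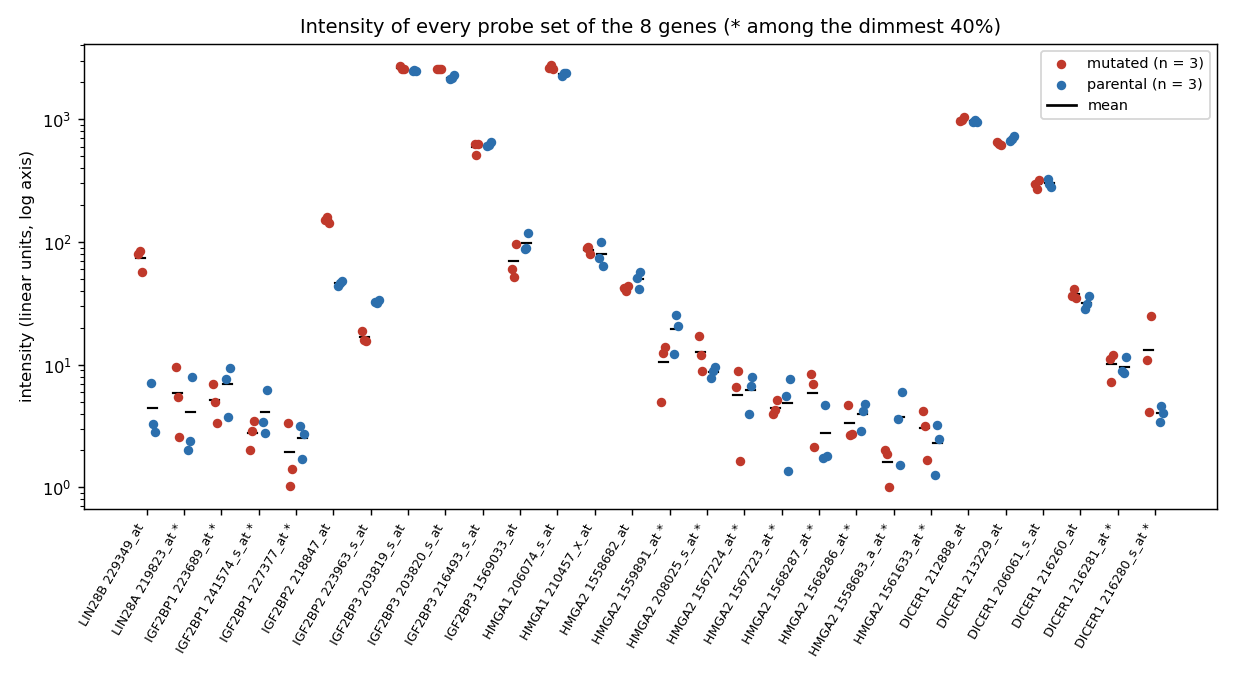
Intensity (log axis) of each of the 28 probe sets of the 8 genes in the 3 mutated (left, red) and 3 parental (right, blue) samples, with the group mean as a bar and an asterisk on probe sets among the dimmest 40%. The LIN28B probe set sits between 56.64 and 84.84 in mutated samples and between 2.83 and 7.15 in parental samples, while the groups lie close together or overlap on most of the others.

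LIN28A, which blocks let-7 in embryonic stem cells, was dim in both groups. Its probe set (219823_at) read 9.63, 5.50 and 2.57 in mutated and 2.00, 2.39 and 8.01 in parental samples, all below the median of their own array. These values overlap, and a difference was not detectable at this brightness.

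The IGF2BP proteins bind mRNAs in the cytoplasm and steady or place them, and their genes carry let-7 sites. IGF2BP1 had 3 probe sets, all dim, with values from 1.02 to 6.98 in mutated and from 1.70 to 9.33 in parental samples, and the groups overlapped on each.

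The 2 probe sets of IGF2BP2 went opposite ways. On 218847_at the gene read 151.38, 160.06 and 142.82 in mutated against 43.83, 46.01 and 48.15 in parental samples, a log2 difference of 1.43 (SE 0.0589). On 223963_s_at it read 18.97, 15.83 and 15.55 in mutated against 32.58, 31.99 and 33.79 in parental samples, a log2 difference of -0.57 (SE 0.0579). Neither pair of groups overlapped, so the direction of IGF2BP2 as a gene depends on the probe set, and 223963_s_at passed the brightness filter only through the parental samples. The suffix _s_at marks probes shared by several transcripts. The first had means of 151.4 ± 8.62 in mutated and 46.0 ± 2.16 in parental samples, a ratio of 3.29, and the second 16.8 ± 1.90 in mutated and 32.8 ± 0.918 in parental samples, a ratio of 0.512 (SD, n = 3 each).

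IGF2BP3 was bright in both groups. The 203820_s_at values were 2556.41, 2566.08 and 2593.12 in mutated against 2120.19, 2156.29 and 2299.69 in parental samples, and the groups did not overlap. The log2 difference there was 0.23 (SE 0.0512). On 203819_s_at the values were 2695.03, 2580.18 and 2559.19 in mutated against 2486.63, 2539.54 and 2470.39 in parental samples. That difference of 0.06 (SE 0.0473) turned to -0.02 when each array was centred on its median. The other probe sets, 216493_s_at and 1569033_at, differed by -0.08 (SE 0.0889) and -0.45 (SE 0.198), with overlapping groups. On 1569033_at the samples were widely spread, at 60.75, 52.34 and 95.91 in mutated and 88.19, 89.72 and 119.41 in parental samples.

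The HMGA proteins bend AT-rich DNA and open chromatin, and HMGA2 is the classic mRNA with many let-7 sites. HMGA1 read 2631.01, 2766.70 and 2578.04 in mutated against 2259.09, 2366.45 and 2386.23 in parental samples on 206074_s_at, with no overlap. The log2 difference was 0.18 (SE 0.0524), and 0.11 with median centring. Its dimmer probe set 210457_x_at overlapped between groups, differed by 0.11 (SE 0.138), and turned to -0.08 with quantile normalization.

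HMGA2 had 9 probe sets, and 8 of them were below the median of every array, between 1 and 25.41. The one above the filter (1558682_at) read 42.56, 39.92 and 43.56 in mutated and 51.19, 41.59 and 57.38 in parental samples. These overlapped, with a log2 difference of -0.18 (SE 0.0930).

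DICER1 had 6 probe sets, of which the brightest overlapped between groups. On 212888_at the gene read 964.39, 992.90 and 1052.10 in mutated and 944.78, 984.38 and 959.81 in parental samples, a log2 difference of 0.06 (SE 0.0530) that turned to -0.02 with median centring. On 213229_at the mutated values of 651.46, 625.11 and 622.92 lay below the parental values of 663.70, 685.29 and 727.30, a difference of -0.12 (SE 0.0543). The other 2 tested probe sets differed by -0.03 (SE 0.0857) and 0.16 (SE 0.0805) with overlapping groups, and the 2 left out as dim lay between 3.41 and 24.74.

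Across the arrays 47.5% of tested probe sets were past an adjusted p of 0.05 in limma with Benjamini-Hochberg adjustment. No such calls are given for the 8 genes, since they were chosen on this contrast. Of their 14 tested probe sets, the groups did not overlap on 7, against 57.8% of all tested probe sets. For the same reason nothing is read from that count.

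**Figure D2:**
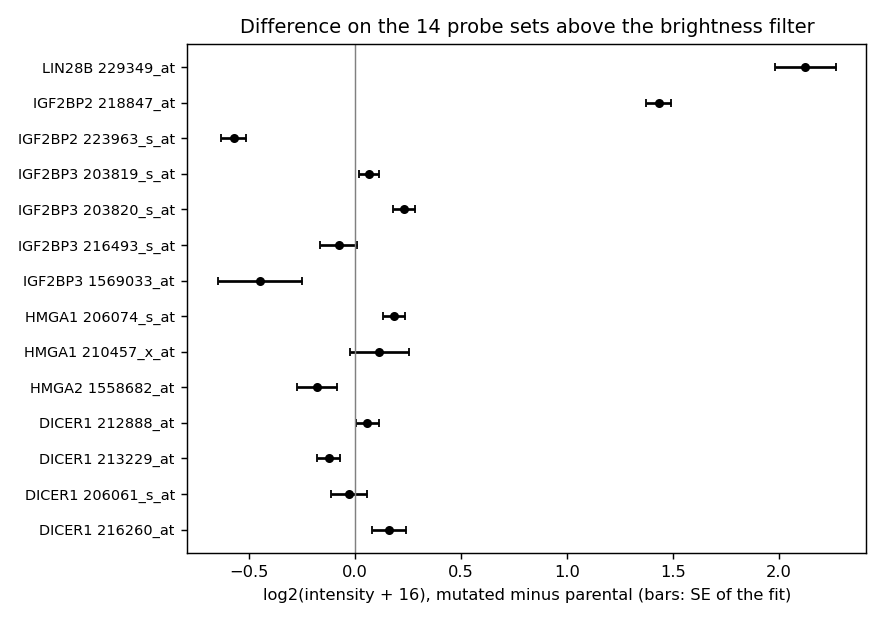
Difference in log2(intensity + 16), mutated minus parental, on the 14 tested probe sets, with the SE of the fit as bars. LIN28B stands at 2.13 and the 2 IGF2BP2 probe sets at 1.43 and -0.57, while the remaining 11 lie between -0.45 and 0.23.

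The transcripts that hold let-7 genes were looked at next, since they are made from the same DNA as the precursors. MIR99AHG, a long noncoding RNA gene on chromosome 21 that holds MIRLET7C, MIR99A and MIR125B2, was much higher in mutated cells. Its probe set 239999_at read 322.59, 322.71 and 331.53 in mutated against 4.26, 6.72 and 7.34 in parental samples, a log2 difference of 3.95 (SE 0.0657). On 1559901_s_at it read 172.92, 172.99 and 184.72 in mutated against 8.18, 23.51 and 9.15 in parental samples, a log2 difference of 2.74 (SE 0.184). The third probe set, 1559412_at, read 39.98, 36.63 and 39.61 in mutated and 40.67, 38.42 and 36.61 in parental samples and did not pass (adjusted p = 0.951, limma with Benjamini-Hochberg adjustment). The 239999_at and 1559901_s_at probe sets, like that of LIN28B, passed the brightness filter only through the mutated samples. The sizes of these differences therefore depend on the pseudocount, and no p-value is given for them. A host transcript is not a measure of mature let-7c.

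HUWE1, a ubiquitin ligase gene that holds MIR98 and MIRLET7F2, did not pass on its brightest probe set (log2 difference 0.05, adjusted p = 0.513), while 208598_s_at and 236294_at fell, by 0.55 and 0.28 on the log2 scale. WDR82, which holds MIRLET7G, differed by -0.11 (adjusted p = 0.133) and passed as lower with median centring. MIR100HG and MIRLET7BHG were dim, with values of 1 to 7.44. A probe set annotated to MIRLET7D (227793_at, looked at after its values were seen) read 435.58, 454.15 and 391.23 in mutated against 365.23, 366.21 and 371.41 in parental samples (log2 difference 0.21, adjusted p = 0.0385). It lost its call with quantile normalization, with median centring, with no filter on dim probe sets and without any 1 of 5 samples. Of the 3 host genes tested, 1 (MIR99AHG) rose, on a probe set above the filter only through the mutated samples, and 2 did not pass.

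**Figure D3:**
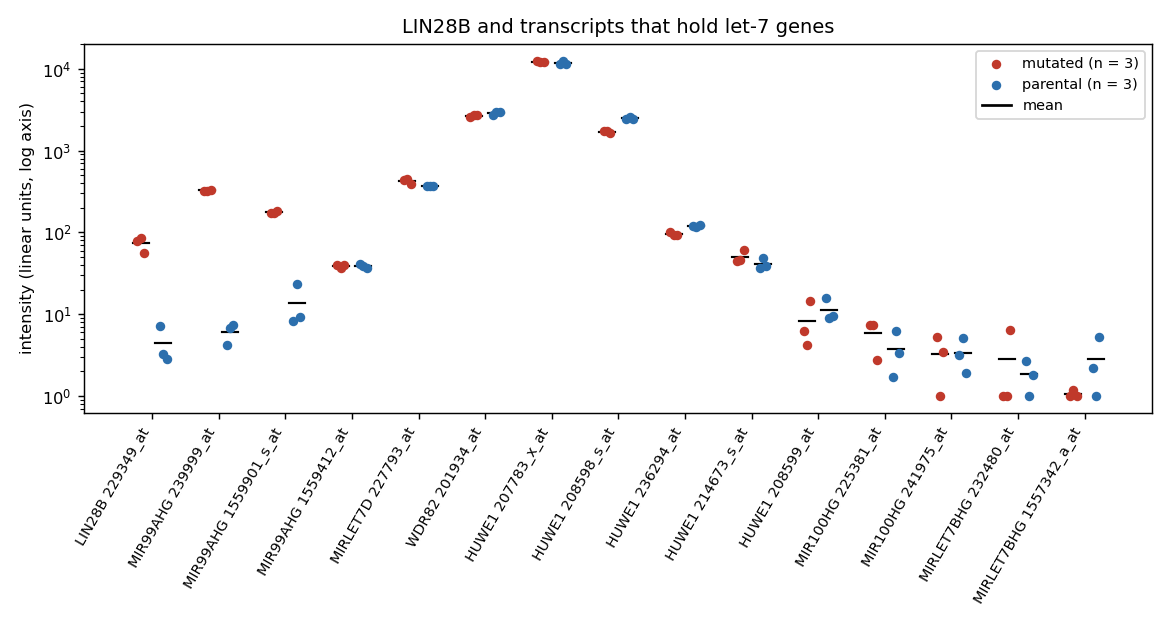
Intensity (log axis) of LIN28B and of the probe sets of transcripts that hold let-7 genes, in 3 mutated (left, red) and 3 parental (right, blue) samples, with the mean as a bar. LIN28B and 2 of the 3 MIR99AHG probe sets show mutated samples far above parental ones, and the third MIR99AHG probe set does not separate the groups.

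For genes as a whole, 30.1% of the 13644 tested rose and 18.9% fell, each gene standing on its brightest tested probe set, and the median log2 difference was 0.04. Other scalings moved the balance, since 61.5% of the called genes rose with the values as deposited, 49.4% after quantile normalization and 46.1% after median centring. The pathway counts below are read beside these shares, with no test of a list.

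Among the enzymes and cofactors that make, tail or degrade let-7, 27 of 28 genes were tested, and 4 rose, 7 fell and 16 did not pass, with a median log2 difference of -0.05. With quantile normalization 2 rose and 10 fell, with median centring 2 rose and 12 fell, and 2 rose without mutated 1, mutated 2, parental 1 or parental 3. XPO5, which exports precursors from the nucleus, averaged 484.6 ± 9.42 in mutated and 828 ± 25.6 in parental samples (SD, n = 3 each), a fall of 0.75 on the log2 scale (adjusted p = 5.27e-05), and it fell on all 3 probe sets. AGO2, the slicing Argonaute, averaged 590.0 ± 12.8 in mutated and 831 ± 37.1 in parental samples (adjusted p = 5.31e-04). AGO4, an Argonaute that does not slice, averaged 337 ± 12.2 in mutated and 177 ± 8.57 in parental samples, a log2 difference of 0.87 (adjusted p = 5.32e-05), but 0.03 on its dimmer probe set. SYNCRIP, an RNA-binding protein, averaged 1783 ± 72.3 in mutated and 2354 ± 37.5 in parental samples (adjusted p = 0.00103). Of the tailing and decay enzymes, DIS3L2 rose by 0.22 (adjusted p = 0.0326). That call was lost with either scaling, with no filter on dim probe sets and without mutated 1, mutated 2, parental 1 or parental 3. The other DIS3L2 probe sets differed by -0.13 to 0.07, and none of them passed. TUT4 and TUT7 did not pass on their brightest probe sets, at -0.05 and -0.02, and their other probe sets differed by 0.34 for TUT4 and by -0.29 to 0.40 for TUT7.

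Let-7 targets moved both ways. Over both target lists, 55 genes were tested, and 13 rose (23.6%), 16 fell (29.1%) and 26 did not pass, with a median log2 difference of -0.03. With quantile normalization 9 rose and 19 fell, and with median centring 8 rose and 18 fell. With all probe sets of a gene averaged, 17 rose and 16 fell. Of the 28 tested among targets shown by experiment, 7 rose, 12 fell and 9 did not pass (median -0.13), and with quantile normalization 4 rose and 12 fell. Of the 27 tested with a conserved site, 6 rose, 4 fell and 17 did not pass, while 5 rose and 7 fell with quantile normalization and 3 rose and 6 fell with median centring.

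PRDM1, the transcription factor that drives plasma cell differentiation, averaged 105.4 ± 3.32 in mutated and 348.7 ± 16.4 in parental samples, a log2 difference of -1.59 (adjusted p = 3.62e-06), and fell on all 3 probe sets. It is also in the B cell and plasma cell marker list, in which 3 of the 11 measured markers rose (CD79A, CD79B and MZB1), 5 fell (PRDM1, SDC1, CD38, IGHM and CD22) and 3 did not pass. The plasma cell marker SDC1 read 304.29, 343.20 and 280.16 in mutated against 544.87, 574.44 and 606.48 in parental samples. MZB1, a chaperone of antibody-secreting cells, went the other way, at 1331.82, 1385.59 and 1231.40 in mutated against 949.11, 962.29 and 898.64 in parental samples. The part of cell state in these target counts was not tested. STAT3, the transcription factor downstream of IL-6, averaged 1010 ± 39.9 in mutated and 1956 ± 42.7 in parental samples, a log2 difference of -0.94 (adjusted p = 2.59e-05). PLAGL2, a zinc-finger factor, fell by 0.70 on the log2 scale (adjusted p = 4.91e-05), while its other probe set was higher by 0.38. IL10, the cytokine interleukin-10, averaged 211 ± 21.95 in mutated and 45.95 ± 8.47 in parental samples, a log2 difference of 1.88 (adjusted p = 5.06e-05). CCND1, which encodes cyclin D1, averaged 216 ± 10.6 in mutated and 82.0 ± 12.8 in parental samples, a log2 difference of 1.25 (adjusted p = 1.33e-04).

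MYC, a much studied let-7 target, averaged 3336 ± 80.5 in mutated and 3755 ± 114 in parental samples, a log2 difference of -0.17 (adjusted p = 0.029). It lost its call without any 1 of 5 samples and with no filter on dim probe sets. The cell cycle genes CDK6, CCND2 and CDC25A fell by 0.26, 0.23 and 0.28 on the log2 scale on their brightest probe sets, while 1 of the other CCND2 probe sets rose by 1.53 and those of CDK6 ran from -0.56 to 0.16. The receptor TGFBR1 rose by 0.35 (adjusted p = 0.00179) and by 1.204 on another probe set, while 206943_at differed by -0.16 and did not pass. ARID3B, a DNA-binding let-7 target, rose by 0.24 (adjusted p = 0.0472), but lost its call without any 1 of the 6 samples, with either scaling, with no filter on dim probe sets and with a pseudocount of 1. ARID3A, its paralogue, differed by -0.17 and did not pass, and fell by 0.48 on its other probe set.

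Among genes with a conserved site, CPEB4, a cytoplasmic polyadenylation factor, averaged 1217 ± 26.8 in mutated and 2066 ± 26.3 in parental samples (adjusted p = 4.01e-05) and fell on all 4 probe sets. E2F5, a cell cycle factor, averaged 590.2 ± 18.9 in mutated and 334 ± 10.4 in parental samples, a log2 difference of 0.79 (adjusted p = 5.27e-05). HIC2, a repressor of transcription, rose by 0.58 (adjusted p = 5.68e-04) but differed by -0.20 to 0.42 on its other probe sets. SLC5A6, a vitamin transporter, fell by 0.61 on the log2 scale (adjusted p = 0.00152).

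The insulin-like growth factor axis, which LIN28 and let-7 both touch, had 10 tested genes, of which 1 rose, 2 fell and 7 did not pass on their brightest probe sets. IGF1R, the IGF receptor and a let-7 target, differed between probe sets. On 225330_at IGF1R read 106.86, 116.41 and 108.18 in mutated against 18.38, 12.54 and 10.23 in parental samples, a log2 difference of 2.10. On 203627_at it read 77.83, 79.40 and 63.84 in mutated against 9.04, 10.78 and 8.71 in parental samples, a log2 difference of 1.81. The probe set with the highest mean, 208441_at, overlapped between groups, at 55.26, 45.72 and 50.71 in mutated and 56.37, 45.85 and 55.38 in parental samples (log2 difference -0.04, adjusted p = 0.722). Both of the rising IGF1R probe sets passed the brightness filter only through the mutated samples, so no p-value is given for them. With probe sets averaged, the IGF1R log2 difference was 1.29, and 2 genes of the axis were counted as rising. Without parental 1, parental 2 or parental 3 another IGF1R probe set was the brightest and 2 were counted as well, and without mutated 1, 4 fell. In these settings IGF1R stands at least partly on probe sets above the filter only through the mutated samples. No call is read for IGF1R from these counts. IGF2R, the scavenger receptor of IGF2, averaged 1513 ± 89.3 in mutated and 2051 ± 46.1 in parental samples (adjusted p = 0.00132). IGF1 averaged 70.8 ± 3.81 in mutated and 93.1 ± 5.74 in parental samples (adjusted p = 0.0053) and fell further on its other probe sets, by 0.60 to 1.05 on the log2 scale. IRS2, the docking protein of the insulin receptor, rose by 0.32 (adjusted p = 0.0135) and by 1.51 on its other probe set, and the call on its brightest probe set was lost with quantile normalization, under which 0 genes of the axis rose. INSR, the insulin receptor, differed by 0.04 and did not pass.

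Of the other oncofetal and pluripotency genes, 8 were tested, and 3 rose, 1 fell and 4 did not pass. PEG10, an imprinted gene derived from a retrotransposon and active in placenta and liver tumours, read 396.78, 414.20 and 435.16 in mutated against 45.76, 49.14 and 39.66 in parental samples. Its log2 difference was 2.83 (adjusted p = 1.12e-06), with 1.22 on its other probe set. SOX2 rose by 0.33 (adjusted p = 0.0201), DPPA2 fell by 0.36 (adjusted p = 0.0164) and PLAG1 rose by 0.25 (adjusted p = 0.0322). SOX2 and DPPA2 were dim, SOX2 lost its call without mutated 3, DPPA2 without parental 2 or parental 3, and PLAG1 without any 1 of 5 samples. PLAG1 also lost its call with both scalings and SOX2 with median centring, so that 2 rose and 2 fell with quantile normalization and 1 rose and 2 fell with median centring. With no filter on dim probe sets PLAG1 lost its call as well. Without mutated 3, 1 of the 8 rose, and without parental 2 or parental 3, 0 fell.

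LIN28B is known in fetal haematopoiesis, where it favours fetal-type lymphocytes and fetal globin. Of 8 tested genes linked to fetal haematopoiesis, 3 rose, 2 fell and 3 did not pass. The list holds genes of opposite roles, among them the globin silencers SOX6 and BCL11A. The count therefore gives no direction for a fetal programme. SOX4, a lymphoid progenitor factor, averaged 3240 ± 51.8 in mutated and 1516 ± 29.05 in parental samples, a log2 difference of 1.09 (adjusted p = 8.15e-06), and rose on all 4 probe sets. HBE1, the embryonic epsilon globin, read 60.23, 66.06 and 69.12 in mutated against 485.43, 505.26 and 480.97 in parental samples, a log2 difference of -2.64 (adjusted p = 6.85e-07). SOX6, a partner of BCL11A in globin silencing, rose by 0.40 (adjusted p = 0.00246), with no call when its probe sets were averaged. BHLHE41, a factor of fetal-type B-1a cells in mice, fell by 0.34 on the log2 scale (adjusted p = 0.0133). BCL11A, which silences fetal globin, was dim on its brightest probe set, with a log2 difference of 0.25, and was higher by 1.12 on 222891_s_at. Both probe sets passed the brightness filter only through the mutated samples, so no p-value is given for them. BCL11A is 1 of the 3 genes counted as rising. That call was lost with either scaling, with no filter on dim probe sets and without mutated 1, mutated 3 or parental 3.

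Of 11 tested mRNAs known to be bound by IGF2BP proteins, 2 rose, 3 fell and 6 did not pass. ABCB1, a drug efflux pump, fell by 1.32 on the log2 scale (adjusted p = 3.9e-05) and by 0.57 on its other probe set. CD44, an adhesion receptor, fell by 0.83 on its brightest probe set (adjusted p = 7.44e-05). Its other tested probe sets differed by less, from -0.60 to 0.22. BTRC, a ubiquitin ligase subunit, rose by 0.31 (adjusted p = 0.00691) and the glucose transporter SLC2A1 by 0.35 (adjusted p = 0.0159), and both calls were lost with quantile normalization, under which 0 rose and 4 fell. The other BTRC probe sets differed by -0.08 to 0.19, and none of them passed. Of 15 other RNA-binding proteins of growth and translation, 3 rose, 5 fell and 7 did not pass, and with median centring 0 rose and 6 fell. DHX9, an RNA helicase, fell by 0.50 on the log2 scale (adjusted p = 3.18e-04), and its other 2 probe sets opposed each other, 1 falling by 1.04 and 1 rising by 0.45. HNRNPU and G3BP1 fell by 0.31 and 0.27, and FXR2 rose by 0.25 on its brightest probe set and fell by 0.46 on the other, and the first of these calls was lost with median centring. These lists share members, MYC, IRS2, INSR, IGF1R, ARID3A and TRIM71 among them.

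**Figure D4:**
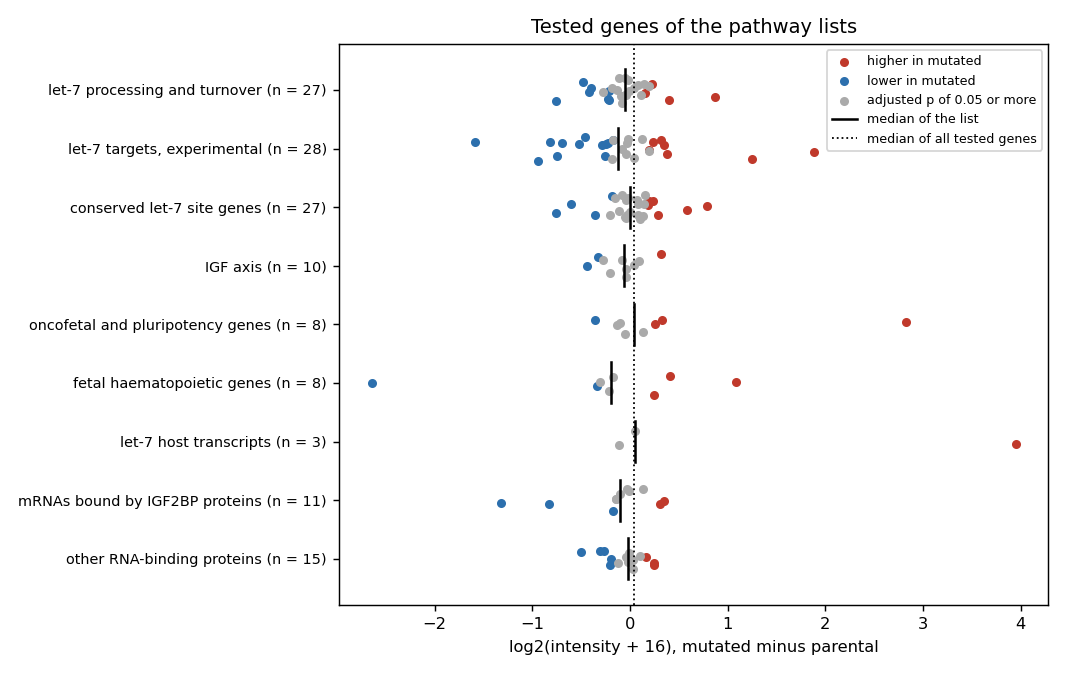
Difference in log2(intensity + 16), mutated minus parental, of each tested gene in the 9 pathway lists, red where higher and blue where lower in mutated samples at an adjusted p under 0.05, with each list's median as a black bar and the median of all genes (0.04) as a dotted line. Each list has genes on both sides of 0, and the list medians lie between -0.19 and 0.05.

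The genes whose 6 values followed LIN28B most closely were found by the Euclidean distance between log2 values centred on each gene's mean. The closest was CLRN3, a clarin family membrane protein, at a distance of 0.307, with 81.03, 76.43 and 66.02 in mutated against 11.13, 6.42 and 4.89 in parental samples. AJUBA, a LIM domain scaffold, followed at 0.321, with 87.74, 89.48 and 63.42 in mutated against 14.03, 9.49 and 4.94 in parental samples. Another AJUBA probe set, 1553764_a_at, read 74.27, 73.24 and 78.81 in mutated against 5.39, 7.78 and 6.78 in parental samples. The order of the mutated samples thus differed between these probe sets, and 243446_at differed by only 0.12. MED15P9 (0.335), CAMP (0.354), ARLNC1 (0.362) and OTOGL (0.371) came next. CLRN3 and AJUBA also passed the brightness filter only through the mutated samples. With 3 samples in each of 2 groups, likeness mainly means a group difference of about the same size.

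The neighbours of LIN28B on chromosome 6, in RefSeq gene order, moved both ways. Of the 10 nearest tested protein-coding genes, 2 rose, 2 fell and 6 did not pass on their brightest probe sets. Among those 6, 4 rose on another probe set, USP45 by 0.72, PREP by 0.45, ATG5 by 0.35 and ASCC3 by 0.22 on the log2 scale, and CCNC fell by 0.34 on another. Over all tested genes 30.1% rose and 18.9% fell, and 47.5% of all tested probe sets passed either way. Nothing about the neighbourhood is read from these counts. HACE1, a ubiquitin ligase gene directly beside LIN28B, averaged 973 ± 58.8 in mutated and 684.6 ± 16.02 in parental samples, a log2 difference of 0.50 (adjusted p = 7.9e-04). PREP, 3 genes to the other side, differed by 0.07 on its brightest probe set and did not pass, and it rose on its other 2 probe sets, by 0.17 and 0.45. PRDM1 and CRYBG1, 4 and 6 genes away on that side, fell by 1.59 and 0.90 on the log2 scale (adjusted p = 3.62e-06 and 2.11e-05). CRYBG1, a crystallin-like gene, averaged 1166 ± 22.8 in mutated and 2187 ± 49.1 in parental samples. RTN4IP1, 7 genes away, was higher by 0.15 (adjusted p = 0.0482). It lost its call without any 1 of the 6 samples, with either scaling and with no filter on dim probe sets.

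**Figure D5:**
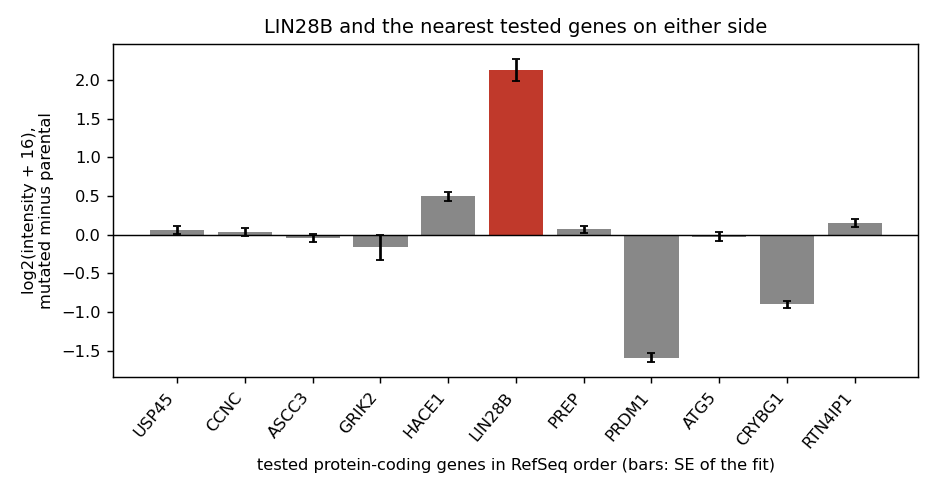
Difference in log2(intensity + 16), mutated minus parental, of LIN28B (red) and the 5 nearest tested protein-coding genes on either side (grey) in RefSeq order, with the SE of the fit. LIN28B stands at 2.13 beside HACE1 at 0.50, and PRDM1 and CRYBG1 lie below 0 at -1.59 and -0.90.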

How the data were processed

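One intensity per probe set and sample, on a linear scale, was deposited by the authors in 1 table of 6 samples. Its summary method, background correction, normalization and genome build are not stated in the sources used here, and no detection calls were used. Samples were grouped by title. The platform annotation named a single gene for 41091 probe sets, more than 1 for 1801, and no gene for 11721. Entrez IDs tied 41037 of them to a RefSeq table of GRCh38.p14, which changed 0 symbols.

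Values were taken as log2(intensity + 16), and the dimmest 40% of probe sets by mean were left out. The other 32768 went into limma 3.58.1 (two-sided, lmFit then eBayes, with group as the only term) in R 4.3.3, with Benjamini-Hochberg adjustment over all of them and a threshold of 0.05. All adjusted p-values are from that fit. A gene is its tested 1-symbol probe set with the highest mean. Python 3.11.15 with matplotlib 3.10.9 drew the figures.

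The members and lists were chosen with earlier results of these data known. Named by rule were every member probe set, up to 4 called genes with the smallest adjusted p per list, the 6 genes closest to LIN28B and 5 tested neighbours on either side of it. Other list genes were named after their values were seen. Alternatives were quantile normalization, median centring, no filter or a filter on the dimmest 60%, pseudocounts of 1 and 64, eBayes with trend and robust options, array weights, a replicate block, averaging all probe sets of a gene, and each sample left out in turn. Precision is limited by the number of arrays, most of all for dim probe sets. Genes of the lists without a 1-symbol probe set were not analysed here.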

Additional observations from a re-analysis of the deposited data

How the results depend on the processing

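The LIN28B log2 difference was 3.85 with a pseudocount of 1 and 1.00 with 64, and 2.03 to 2.27 with a sample left out. The RTN4IP1 log2 difference turned to -0.0125 with quantile normalization. With all probe sets of a gene averaged, signs turned for FXR2 (-0.11), ATG5 (0.17), TUT4 (0.15), HUWE1 (-0.14) and IGF1R (1.29). The IGF1R log2 difference was 1.17 with a pseudocount of 64 and -0.0914 to 2.21 with a sample left out, since another probe set then had the highest mean in some of these. The number of probe sets called was 15553 as reported and 13064 to 16789 over the alternatives, that of genes called 6683 and 5587 to 7495, and that of let-7 target genes called 29 and 23 to 33. Of 1062 results for the 67 named genes, 965 kept their direction and their side of the threshold, 80 lost and 7 gained the call, and 10 turned. Many of these genes were named for a small adjusted p or for likeness to LIN28B in these same data. A high share kept is therefore partly built in, and nothing is read from it. Same-numbered deviations correlated at 0.11, 0.027 and 0.112. Samples of different number were not compared, so these values do not settle whether the replicate numbers pair the samples. With the replicate block 14897 probe sets, 6258 genes and 27 let-7 target genes were called, and PLAG1, RTN4IP1, MYC, BCL11A and MIRLET7D lost their calls and ARID3A gained one. The AJUBA log2 difference was 0.17 with a pseudocount of 1, where another probe set was brightest, as it was without mutated 1 or mutated 2. No call is read for AJUBA, since it was chosen by its likeness to LIN28B. HNRNPU lost its call with the mean over probe sets. LIN28B rests on 1 probe set, and its parental level is near the bottom of the scale.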
